A study of Homo sapiens with 6 samples.

Results

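The mRNA of lysosomal hydrolases, lysosomal membrane proteins, soluble proteins of the lysosomal lumen, subunits of the vacuolar H+-ATPase (V-ATPase) and the MiT/TFE transcription factors was examined in NCI-H660 cells after treatment with pyrvinium pamoate (PP) or PBS. These genes were chosen by name. A list of 34 symbols was joined by the 22 symbols of the table that begin with ATP6V0 or ATP6V1, so 56 of 17177 genes were taken. Of the 22, 21 are V-ATPase subunits, and the other, *ATP6V1FNB*, is a separate gene that lies next to *ATP6V1F* and was kept apart. A mean FPKM (a level per length of gene and per mapped total of the library) of at least 1 over the 6 libraries was required for the test, and 50 of the 56 genes passed it, as did 11726 of all genes.

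NCI-H660 is a long-established line of human neuroendocrine prostate cancer cells, and PP is an anthelmintic dye that the study examined as an inhibitor of the RNA-binding protein ELAVL3. The labels give both groups as wild type, with 3 libraries from cells treated with PBS and 3 from cells treated with PP, all collected on day 3. The concentration of PP was not found in the sources used here, and every library comes from the same cell line. The study calls the samples independent without naming the cultures, and its methods give fewer samples per group than the labels do, so P values here measure only the spread between these libraries, which may be technical.

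The counts recovered from the FPKM values came to between 29064253 and 32481171 per library, and the highest total was 11.8% above the lowest. All 8 neuroendocrine markers looked at had a mean FPKM of at least 1 (15.4 to 398), whereas none of the 3 luminal prostate markers in the table did (at most 0.739). Among fibroblast and leukocyte markers, 1 of 4 (*COL1A1*, mean 3.73) and 1 of 4 (*CD68*, mean 1.25) reached 1. PP libraries were compared with PBS libraries by limma on log2(FPKM + 1), with positive differences meaning higher with PP, and P values were adjusted over all 11726 genes. A large share of the transcriptome differed between the groups. At an adjusted p under 0.05, 72.5% of all genes were called, 38.1% higher and 34.4% lower with PP, and the median log2 fold change of all genes was 0.02. FPKM are scaled to the total of each library, so these are changes relative to the other transcripts, and fewer cells with a transcript cannot be told apart from less of it per cell.

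Lysosomes are acidic organelles in which proteins, glycans, lipids and nucleic acids are broken down by soluble hydrolases. The acid pH is made by V-ATPase, a rotary pump whose cytosolic V1 sector hydrolyses ATP and whose membrane-embedded V0 sector carries protons. The limiting membrane is covered by heavily glycosylated proteins such as LAMP1 and LAMP2. Many of these genes share a palindromic E-box in their promoters, called the CLEAR element, which is bound by the MiT/TFE factors TFEB, TFE3 and MITF. These factors are held in the cytosol while mTORC1 is active at the lysosome and enter the nucleus when it is not.

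Most of the lysosomal mRNAs tested were lower in the cells treated with PP, while the MiT/TFE factors were higher. Over the 5 groups of members, 32 of 50 genes fell (64%, beside 34.4% of all genes), 6 rose (12%, beside 38.1%) and 12 did not pass the test. Their median log2 fold change was -0.28, beside 0.02 for all genes. All 3 PP libraries lay below all 3 PBS libraries in 32 of the 50 genes, which was so for 35.5% of all genes, and above them in 8, which was so for 39.5% of all genes. With a further size limit, chosen after the data were seen, 17 members had a log2 fold change below -0.5 (12.5% of all genes did) and 2 had one above 0.5 (11.3% of all genes did). At an unadjusted P under 0.001 with a log2 fold change beyond 1 in either direction, 3 members were lower (*CTSA*, *CTSB* and *GRN*, beside 2.93% of all genes) and 1 was higher (*ATP6V1H*, beside 2.24%). Over the alternative settings the log2 fold change ranged from 0.989 to 1.02 for *ATP6V1H* and from -1.004 to -0.942 for *NPC2*, so both crossed the limit of 1. Among all genes, limma-voom gave 397 higher and 559 lower past these limits, beside 263 and 344.

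**Figure D1:**
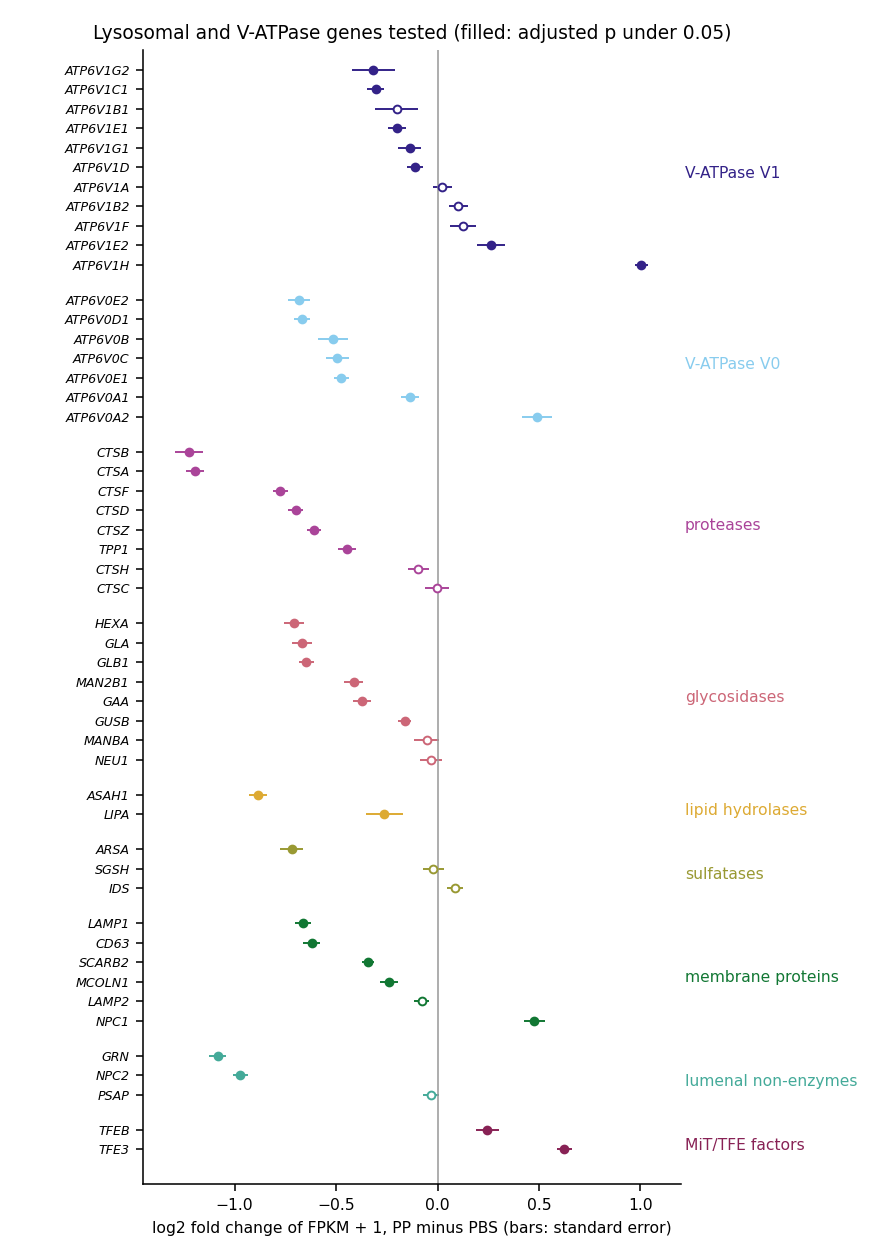
Log2 fold change of FPKM + 1, PP minus PBS, for the 50 genes tested, grouped by the role of the protein. Points are the limma estimates and bars their standard errors, and filled points have an adjusted p under 0.05. Most hydrolases and V0 subunits lie left of 0, and *ATP6V1H*, *TFE3*, *ATP6V0A2* and *NPC1* stand to the right at 1.004, 0.63, 0.49 and 0.48.

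Both MiT/TFE factors that passed the filter rose, beside 38.1% of all genes. TFE3 and TFEB are basic helix-loop-helix leucine zipper proteins that drive transcription of lysosomal and autophagy genes. *TFE3* had 27.3, 27.0 and 28.0 FPKM in the PBS libraries and 42.3, 42.9 and 43.4 in the PP libraries. Its groups did not overlap, and its log2 fold change was 0.63 (SE 0.0357, adjusted p = 1.32e-07 by limma). *TFEB* had 5.08, 4.91 and 4.94 FPKM with PBS and 6.21, 6.33 and 5.72 with PP. It also rose without overlap between the groups, by 0.25 on the log2 scale (SE 0.0553, adjusted p = 0.00242 by limma). Every PP library lay above every PBS library in 39.5% of all genes. Per length, *TFE3* mRNA was the more abundant of both, at 5.38 to 5.67 times the FPKM of *TFEB* in the PBS libraries and 6.78 to 7.58 times in the PP libraries. As both were called higher, neither could be lower in the same fit, and neither was lower by limma-voom on the recovered counts. *MITF* was not part of these fits.

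*MITF*, the member of the family best known from melanocytes, was below the filter and was read from a fit with the limit on the mean FPKM lowered to 0.1. Its values were 0.339, 0.336 and 0.153 FPKM with PBS and 0.461, 0.447 and 0.451 with PP, which correspond to 30 to 93 recovered counts. PBS replicate 3 was the lowest of the 6 libraries. In that fit the log2 fold change of *MITF* was 0.19 (SE 0.0736, adjusted p = 0.0433 by limma), and its level stayed far under that of *TFEB* in every library.

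**Figure D2:**
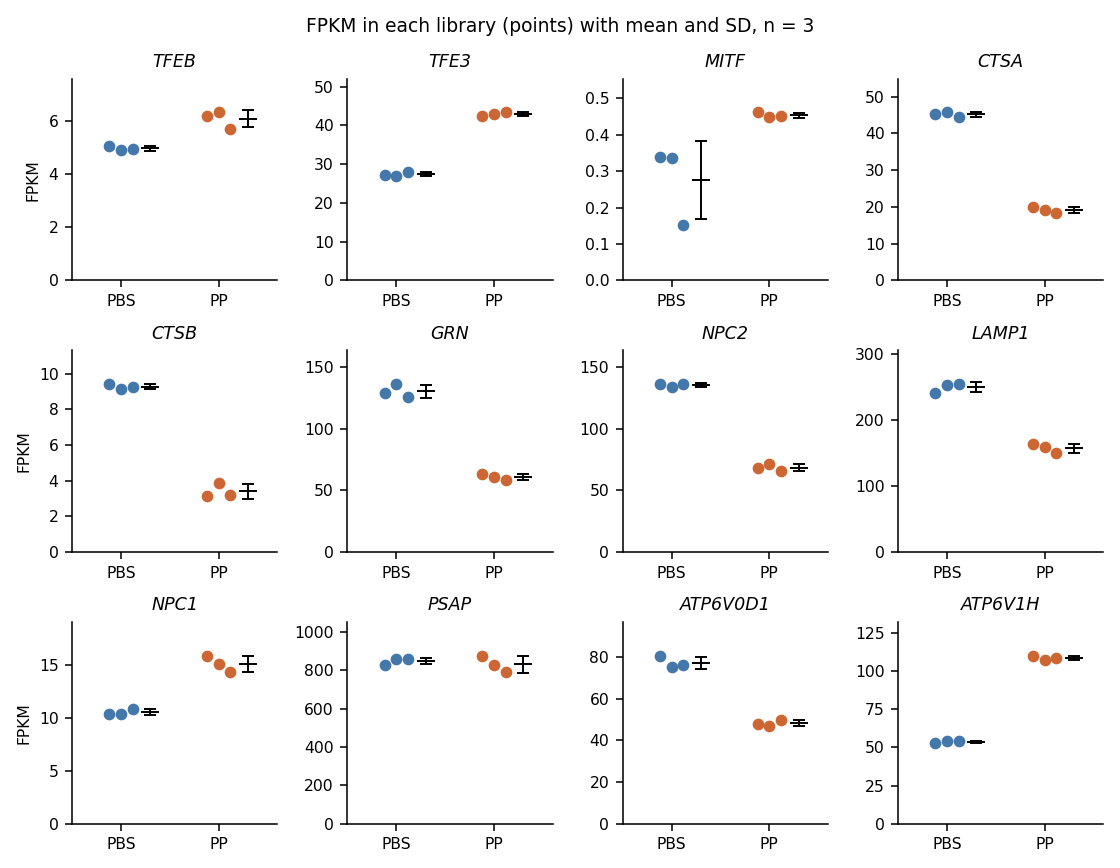
FPKM of 12 of the genes in each library (points, linear axes from 0 with a range per gene), with the mean and SD of 3 libraries beside them. *TFEB*, *TFE3*, *MITF*, *NPC1* and *ATP6V1H* are higher in the PP libraries, *CTSA*, *CTSB*, *GRN*, *NPC2*, *LAMP1* and *ATP6V0D1* are lower, and the libraries of *PSAP* overlap.

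The promoter sequences of the members were searched for the letters that MiT/TFE factors are known to bind. That many lysosomal genes share these letters was known beforehand, so their shares among the members only describe the promoters. RefSeq promoters (GRCh38.p14, 250 bases before to 50 bases after the annotated start) were matched by symbol for 40 of the 55 members without *ATP6V1FNB*. On both strands, the E-box core CACGTG was present in 12 of the 40 (30%), in 8.77% of the 27305 genes with a promoter entry and in 12.8% of the 9557 tested genes with one. The longer palindrome TCACGTGA, which contains that core, was present in 6 members (15%), in 1.18% of all genes and in 2.38% of tested genes. With a G before and a C after it, TCACGTGA was present in 3 members (7.5%), in 0.421% of all genes and in 0.942% of tested genes. The stress element TGATGNAA, bound by C/EBP and ATF proteins, was present in 0 of the 40 members, in 4.46% of all genes and in 2.54% of tested genes. By their call among the tested members with a promoter entry, 11 of 26 that fell had a CACGTG in this window, as did 0 of 4 that rose and 1 of 6 that were not called (*NEU1*). The study also names CACGTG as a sequence bound by MYCN, so the core alone does not tell these factors apart. A match of these letters is a description of the sequence, and binding was not measured in these data.

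The stretches with at least a pair of these cores or with the longer palindrome, upstream of the start, are shown because the other promoters with a match hold a single core. CACGTG is in capitals, and each sequence is read 5′ to 3′ on the strand of its gene. They were taken from RefSeq, build GRCh38.p14, at chr20:45891283-45891325 (plus strand) for *CTSA*, chr11:66568642-66568739 (minus strand) for *CTSF*, chr17:80101495-80101565 (plus strand) for *GAA*, chr13:113297037-113297226 (plus strand) for *LAMP1*, chr19:7522573-7522623 (plus strand) for *MCOLN1*, chr1:43974893-43974936 (plus strand) for *ATP6V0B*, chr16:67481201-67481226 (minus strand) for *ATP6V0D1* and chr9:114587701-114587726 (plus strand) for *ATP6V1G1*.
CTSA: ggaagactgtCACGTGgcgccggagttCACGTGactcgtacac
CTSF: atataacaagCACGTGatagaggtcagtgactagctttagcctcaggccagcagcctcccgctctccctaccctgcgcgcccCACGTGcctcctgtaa
GAA: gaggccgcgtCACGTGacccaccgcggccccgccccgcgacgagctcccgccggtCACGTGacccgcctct
LAMP1: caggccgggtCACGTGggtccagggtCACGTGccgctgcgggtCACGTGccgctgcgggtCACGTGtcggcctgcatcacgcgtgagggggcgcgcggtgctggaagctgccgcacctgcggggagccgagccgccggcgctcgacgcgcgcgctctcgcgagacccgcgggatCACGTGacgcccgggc
MCOLN1: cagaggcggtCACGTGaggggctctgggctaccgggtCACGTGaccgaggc
ATP6V0B: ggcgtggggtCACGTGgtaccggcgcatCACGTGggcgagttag
ATP6V0D1: cccttatggtCACGTGaggcgcttgc
ATP6V1G1: gctgtgcggtCACGTGacaacggggg

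In *LAMP1* the core occurs 6 times, 5 of them in the stretch shown and 1 that crosses the annotated start, and the 4 upstream copies lie 142 to 192 bases before the start. In *GAA* both copies sit within the palindrome with its flanking G and C. *CTSD*, *CD63*, *ATP6V0E2* and *NEU1* each hold a single core outside the longer palindrome and are not shown. No promoter entry was matched for *ATP6V1A*, *ATP6V1B2*, *ATP6V1C1*, *ATP6V1E2*, *ATP6V1H*, *ATP6V0D2*, *ATP6V0E1*, *CTSB*, *HEXA*, *MANBA*, *ASAH1*, *SGSH*, *ARSA*, *LAMP2* and *PSAP*. The genes whose stretches are shown had log2 fold changes of -1.20 for *CTSA*, -0.77 for *CTSF*, -0.67 for *ATP6V0D1*, -0.66 for *LAMP1*, -0.51 for *ATP6V0B*, -0.37 for *GAA*, -0.24 for *MCOLN1* and -0.14 for *ATP6V1G1*. Whether the letters and the direction go together was not tested.

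Of the 21 hydrolases tested, 15 were lower (71.4%, beside 34.4% of all genes), 0 were higher (beside 38.1%) and 6 did not pass the test, with a median log2 fold change of -0.45. All 3 PP libraries lay below all 3 PBS libraries in 16 of them, beside 35.5% of all genes. The count of 0 higher by limma compares with 1 at an unadjusted P under 0.05 and 1 by limma-voom on the recovered counts, in both cases the sulfatase gene *IDS*. The summed FPKM of the 22 hydrolase genes was 828 to 832 in the PBS libraries and 573 to 590 in the PP libraries. In 10 of the 15 genes that fell, the log2 fold change was below -0.5, the size limit chosen after the data were seen. That is 10 of the 21 tested, beside 12.5% of all genes.

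Proteases had the lowest median log2 fold change among the kinds of hydrolases, -0.65, and 6 of 8 tested fell (75%, beside 34.4% of all genes). CTSB, a cysteine cathepsin, fell most. *CTSB* mRNA was at 9.42, 9.16 and 9.25 FPKM with PBS and at 3.12, 3.88 and 3.22 with PP, a log2 fold change of -1.23 (SE 0.0688, adjusted p = 1.16e-07 by limma). CTSA is a serine carboxypeptidase that also protects β-galactosidase and neuraminidase 1 in a complex. *CTSA* mRNA was at 45.3, 45.7 and 44.5 FPKM with PBS and at 20.01, 19.3 and 18.3 with PP. This is a log2 fold change of -1.20 (SE 0.0423, adjusted p = 4.24e-09 by limma), and neither *CTSA* nor *CTSB* had a PP library within the range of the PBS libraries. Among all genes, 35.5% had every PP library below every PBS library. The partners of CTSA differed from each other, since *GLB1* (β-galactosidase) fell by 0.65 on the log2 scale while *NEU1* (neuraminidase 1) had a log2 fold change of -0.03 (adjusted p = 0.615) with overlapping libraries.

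Among the other proteases, the aspartic protease gene *CTSD* was the most abundant, at 178 ± 4.70 FPKM with PBS and 109 ± 4.22 with PP (SD, n = 3), and its log2 fold change was -0.70. *CTSF* and *CTSZ*, which encode cysteine cathepsins, fell by 0.77 and 0.61 on the log2 scale. *TPP1*, which encodes tripeptidyl peptidase 1, fell by 0.45. The genes of the aminopeptidases cathepsin C and cathepsin H did not pass the test. *CTSC* was at 4.01 ± 0.195 FPKM with PBS and 3.99 ± 0.168 with PP, and *CTSH* had a log2 fold change of -0.09 (adjusted p = 0.112). *CTSL*, which encodes cathepsin L, was close to absent in this line and was not tested, with 0 to 4 recovered counts per library.

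Of the glycosidases, 6 of 8 fell (75%, beside 34.4% of all genes), with a median log2 fold change of -0.39. *HEXA* (the α subunit of β-hexosaminidase), *GLA* (α-galactosidase A) and *GLB1* fell by 0.71, 0.67 and 0.65 on the log2 scale, and *MAN2B1* (lysosomal α-mannosidase) by 0.41. *GAA*, the acid α-glucosidase that degrades glycogen, was at 26.7, 27.2 and 27.5 FPKM with PBS and at 21.8, 20.8 and 19.7 with PP, a log2 fold change of -0.37 (SE 0.0449, adjusted p = 3.32e-05 by limma). The smallest drop was that of *GUSB*, which encodes β-glucuronidase. It was at 129, 128 and 130.4 FPKM with PBS and at 118.6, 115 and 113 with PP, and its log2 fold change was -0.16 (SE 0.0317, adjusted p = 0.00102 by limma). The groups overlapped in neither gene, and PP lay wholly below PBS in 35.5% of all genes. *MANBA* (β-mannosidase) did not pass the test, with a log2 fold change of -0.05.

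Both lipid hydrolases fell (beside 34.4% of all genes), by different sizes. Acid ceramidase splits ceramide into sphingosine and a fatty acid. Its gene *ASAH1* was at 20.1, 20.2 and 21.0 FPKM with PBS and at 10.3, 11.04 and 10.4 with PP, a log2 fold change of -0.88 (SE 0.0449, adjusted p = 5.53e-08 by limma). *LIPA*, which encodes lysosomal acid lipase, was at 3.92, 4.22 and 4.81 FPKM with PBS and at 3.80, 2.87 and 3.66 with PP. The groups of *LIPA* were only just apart, and its log2 fold change of -0.26 (SE 0.0928, adjusted p = 0.0264 by limma) lost its call without PBS replicate 3 (adjusted p = 0.1003), without PP replicate 2 (0.102) and with no filter on low genes (0.0811). Among the 3 sulfatases, which remove sulfate from glycans and sulfatide, *ARSA* (arylsulfatase A) fell by 0.72 on the log2 scale. *SGSH* (heparan sulfamidase) had a log2 fold change of -0.02 with overlapping libraries, and *IDS* (iduronate sulfatase) one of 0.09 (adjusted p = 0.0649), with all 3 PP libraries above the PBS libraries. The call of *IDS* changed to higher with no filter (adjusted p = 0.0422) and by limma-voom (0.0295).

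**Figure D3:**
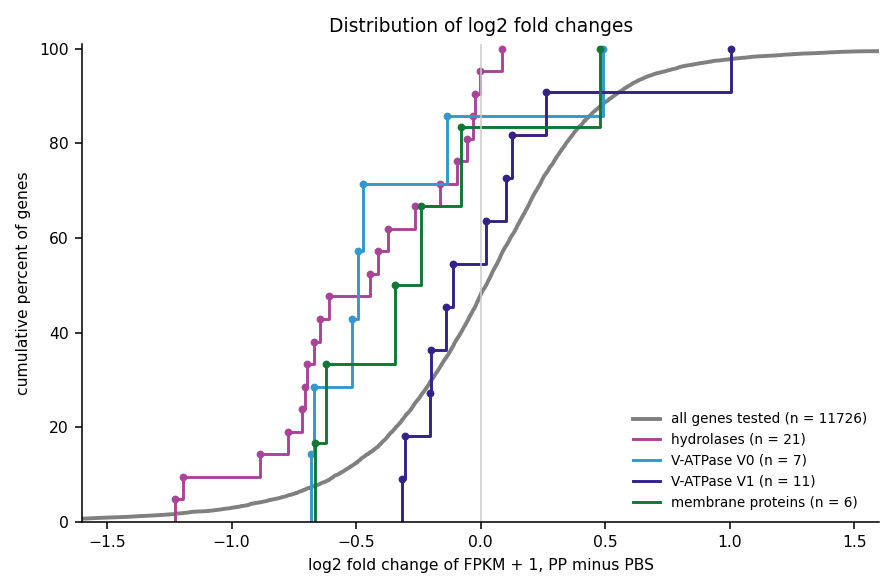
Cumulative percent of genes against log2 fold change of FPKM + 1 (PP minus PBS) for all 11726 genes tested (grey) and for hydrolases (n = 21), V0 subunits (n = 7), V1 subunits (n = 11) and membrane proteins (n = 6). Each step is 1 gene. The hydrolases and V0 subunits, with medians of -0.45 and -0.49, run to the left of all genes (0.02), and the V1 subunits (-0.11) run closest to them.

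The 3 soluble lumenal proteins without hydrolase activity of their own differed from each other. Progranulin, encoded by *GRN*, is taken to the lysosome and cut into granulins. *GRN* was at 129, 136 and 125 FPKM with PBS and at 62.9, 61.0 and 58.6 with PP, a log2 fold change of -1.08 (SE 0.0413, adjusted p = 7.08e-09 by limma). *NPC2*, whose product binds cholesterol in the lumen and passes it to NPC1, was at 136, 134 and 136 FPKM with PBS and at 68.5, 71.6 and 65.7 with PP. Its log2 fold change was -0.97 (SE 0.0376, adjusted p = 7.74e-09 by limma). In neither gene did the groups overlap, and PP lay wholly below PBS in 35.5% of all genes. *PSAP*, the precursor of the saposins that present lipids to hydrolases, was the most abundant member of all. It was at 829, 858 and 860 FPKM with PBS and at 877, 827 and 789 with PP. The PP libraries of *PSAP* lay on both sides of the PBS libraries, and its log2 fold change was -0.03 (SE 0.0392, adjusted p = 0.484 by limma).

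Of the 6 membrane proteins, 4 fell (66.7%, beside 34.4% of all genes), 1 rose (16.7%, beside 38.1%) and 1 did not pass the test, with a median log2 fold change of -0.29. *LAMP1*, a main structural glycoprotein of the lysosomal membrane, was at 242, 254 and 255 FPKM with PBS and at 163, 159.9 and 149.9 with PP, a log2 fold change of -0.66 (SE 0.0391, adjusted p = 1.66e-07 by limma). *LAMP2*, its close relative, which also serves chaperone-mediated autophagy, was at 31.6, 31.5 and 32.3 FPKM with PBS and at 29.4, 29.9 and 30.9 with PP. Although all 3 PP libraries of *LAMP2* lay below the PBS libraries, its log2 fold change was only -0.08 (adjusted p = 0.0851 by limma), and it was called lower with median-ratio size factors (adjusted p = 0.0485), without PP replicate 3 (0.0490) and by limma-voom (0.0386). *CD63*, a tetraspanin of late endosomes and exosomes, was at 264, 274 and 282 FPKM with PBS and at 186, 178 and 168 with PP, a log2 fold change of -0.62 (adjusted p = 4.68e-07 by limma).

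*SCARB2*, whose product LIMP-2 carries glucocerebrosidase to the lysosome, was at 92.6, 90.7 and 91.4 FPKM with PBS and at 71.6, 71.5 and 72.9 with PP, a log2 fold change of -0.34 (adjusted p = 3.86e-06 by limma). *MCOLN1*, which encodes a calcium-permeable channel of the lysosomal membrane, was at 13.6, 13.5 and 13.1 FPKM with PBS and at 11.1, 11.1 and 11.5 with PP. Its log2 fold change was -0.24 (adjusted p = 0.000625 by limma). The groups of both genes were apart, with PP below, as in 35.5% of all genes. *NPC1*, the membrane transporter that takes cholesterol out of the lysosome, moved the other way, from 10.4, 10.4 and 10.9 FPKM with PBS to 15.9, 15.1 and 14.4 with PP. Its log2 fold change was 0.48 (SE 0.0496, adjusted p = 1.08e-05 by limma). The genes for the 2 proteins that hand cholesterol on, *NPC2* in the lumen and *NPC1* in the membrane, thus moved in opposite directions.

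Of 18 V-ATPase subunits tested, 11 fell (61.1%, beside 34.4% of all genes), 3 rose (16.7%, beside 38.1%) and 4 did not pass the test, with a median log2 fold change of -0.17. In the V0 sector 6 of 7 fell and 1 rose, with a median of -0.49. With *TCIRG1*, a further form of V0 subunit a whose symbol does not begin with ATP6V0, 7 of 8 fell (added after the data were seen). In the V1 sector 5 of 11 fell (45.5%, beside 34.4% of all genes), 2 rose and 4 did not pass the test, with a median of -0.11. The 5 became 3 when PBS replicate 1, PBS replicate 2 or any 1 of the PP libraries was left out, and also with the replicate block and in a fit with eBayes without trend. The difference between the sectors was not tested. The summed FPKM of the V0 genes went from 579 to 588 in the PBS libraries to 412 to 428 in the PP libraries. That of the V1 genes was 382 to 399 with PBS and 422 to 442 with PP. The V1 sum without *ATP6V1H* was 328 to 346 with PBS and 312 to 334 with PP, so with that gene left out the ranges of the groups overlapped.

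*ATP6V1H* changed most among the V-ATPase genes. Subunit H joins V1 to V0 and holds back ATP hydrolysis by free V1. *ATP6V1H* was at 53.0, 54.2 and 54.0 FPKM with PBS and at 110.3, 107 and 108.5 with PP, a log2 fold change of 1.004 (SE 0.0316, adjusted p = 1.71e-09 by limma). Its libraries agreed closely within each group and were far apart between groups. *ATP6V1A*, which encodes the catalytic subunit A, was at 32.9 ± 1.12 FPKM with PBS and 33.5 ± 1.67 with PP (SD, n = 3) with a log2 fold change of 0.02. The ratio of the FPKM of *ATP6V1H* to that of *ATP6V1A* was 1.58 to 1.66 in the PBS libraries and 3.16 to 3.40 in the PP libraries. *ATP6V1H* kept a log2 fold change between 0.989 and 1.02 under all 14 alternative settings.

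The other V1 subunits changed by far less. *ATP6V1E2*, the less abundant form of the stalk subunit E, rose from 4.77, 4.52 and 4.02 FPKM with PBS to 5.19, 5.87 and 5.51 with PP, a log2 fold change of 0.26 (adjusted p = 0.00554 by limma). *ATP6V1E1*, its abundant form, was at 54.9, 50.4 and 54.1 FPKM with PBS and at 44.2, 47.2 and 46.9 with PP, a log2 fold change of -0.20 (adjusted p = 0.00192). *ATP6V1C1*, another stalk subunit, was at 37.3, 34.7 and 36.96 FPKM with PBS and at 28.7, 28.6 and 30.3 with PP, a log2 fold change of -0.31 (adjusted p = 0.000105). For these 3 genes the groups did not overlap. Among all genes, PP lay wholly below PBS in 35.5% and wholly above in 39.5%.

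*ATP6V1G2*, the less abundant form of the stalk subunit G, was at 3.77, 3.89 and 2.68 FPKM with PBS and at 2.75, 2.55 and 2.35 with PP. Its PBS replicate 3 lay among the PP libraries, and its log2 fold change of -0.32 (adjusted p = 0.0196 by limma) lost its call without PBS replicate 1 (adjusted p = 0.0700), without PBS replicate 2 (0.0784), without PP replicate 3 (0.0682) and with no filter (0.0680). *ATP6V1D*, which encodes a rotor subunit, was at 49.97, 46.2 and 47.2 FPKM with PBS and at 43.5, 43.9 and 45.03 with PP. Its log2 fold change of -0.11 (adjusted p = 0.0260) lost its call without PBS replicate 1 (0.102), without PP replicate 1 (0.0647) and without PP replicate 2 (0.0691), and in a fit with eBayes without trend (0.0529). *ATP6V1G1* (-0.14, adjusted p = 0.0496) was on the edge of the threshold and lost its call in 10 of 14 settings, with an adjusted p of up to 0.190 without PBS replicate 1. The 3 V1 genes that did not pass the test besides *ATP6V1A* were *ATP6V1B2* (log2 fold change 0.10), *ATP6V1F* (0.12) and *ATP6V1B1* (-0.20). *ATP6V1F* was called higher without PP replicate 2 (adjusted p = 0.0372), and *ATP6V1B1* was called lower without PBS replicate 1 (0.00864).

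**Figure D4:**
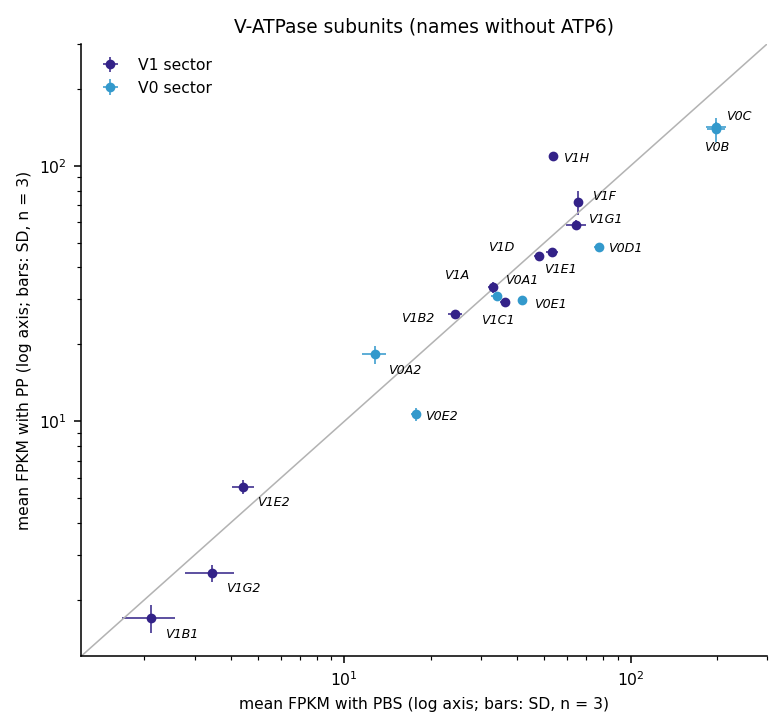
Mean FPKM with PP against mean FPKM with PBS for the 18 V-ATPase subunits tested (log axes, names without ATP6), with bars for the SD of 3 libraries and a grey line of equal levels. *ATP6V1H* lies far above the line at 109 against 53.7 FPKM, *ATP6V0A2* also lies above it, and the other V0 subunits lie below it.

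In the V0 sector, *ATP6V0A2* rose against the rest. It encodes a form of subunit a that is best known from the Golgi and endosomes, and it was at 11.3, 13.7 and 13.3 FPKM with PBS and at 17.5, 19.97 and 17.4 with PP, a log2 fold change of 0.49 (SE 0.0744, adjusted p = 0.000172 by limma). *ATP6V0A1*, another form of the same subunit, was at 34.9, 35.0 and 32.4 FPKM with PBS and at 30.5, 31.7 and 30.5 with PP. Its log2 fold change of -0.14 (adjusted p = 0.0152) lost its call without PBS replicate 1 (0.0526) and without PBS replicate 2 (0.0643). *ATP6V0E1*, a small V0 subunit, was at 42.2, 42.1 and 41.4 FPKM with PBS and at 31.1, 29.2 and 29.4 with PP, a log2 fold change of -0.47 (adjusted p = 1.69e-06). For the 3 genes all PP libraries were on one side of all PBS libraries. That side was below in 35.5% and above in 39.5% of all genes.

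*ATP6V0E2*, the second form of that small subunit, had the lowest log2 fold change of the sector in the main fit. It went from 18.5, 17.3 and 17.4 FPKM with PBS to 10.8, 11.3 and 10.01 with PP, a log2 fold change of -0.68 (SE 0.0525, adjusted p = 1.16e-06 by limma). Over the alternative settings its range (-0.735 to -0.641) overlapped that of *ATP6V0D1* (-0.690 to -0.637). *ATP6V0D1*, which encodes the subunit that couples the rotor to the proton-carrying ring, was at 80.6, 75.3 and 76.0 FPKM with PBS and at 48.0, 47.0 and 49.9 with PP, a log2 fold change of -0.67 (SE 0.0398, adjusted p = 1.79e-07). *ATP6V0B*, which encodes a subunit of the ring, was at 183, 203 and 210.2 FPKM with PBS and at 156, 129.5 and 132 with PP, a log2 fold change of -0.51 (SE 0.0718, adjusted p = 9.49e-05). *ATP6V0C*, which encodes the main ring subunit, was at 199 ± 15.8 FPKM with PBS, which the spread does not separate from the 199 ± 14.2 of *ATP6V0B*, and went to 141 ± 6.96 with PP (SD, n = 3), a log2 fold change of -0.49. In these 4 genes no PP library reached the lowest PBS library, which was so for 35.5% of all genes.

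For 5 subunits a pair of tested genes whose symbols differ only in the last digit encodes forms of the same subunit, and their shares were compared because FPKM is a level per length. Of the summed FPKM of *ATP6V0A1* and *ATP6V0A2*, *ATP6V0A2* made up 27.2% ± 2.42 with PBS and 37.1% ± 1.30 with PP (SD, n = 3, exact permutation test, two-sided, p = 0.1). Subunit a has a further tested form, *TCIRG1*, and with it in the sum, an alternative added after the data were seen, the share of *ATP6V0A2* was 17.7% ± 1.17 with PBS and 28.2% ± 1.21 with PP (exact permutation p = 0.1). In that sum *TCIRG1* went from 34.8% ± 1.58 to 24.1% ± 1.15 (exact p = 0.1), and the shares of *ATP6V0A1* (47.5% and 47.7%) overlapped (exact p = 0.8). *ATP6V1E2* made up 7.72% ± 0.702 and 10.7% ± 0.322 of its pair (exact p = 0.1), and *ATP6V0E2* made up 29.7% ± 0.677 and 26.3% ± 1.33 of its pair (exact p = 0.1). On recovered counts, which are not per length, the share of *ATP6V1E2* was 16.6% and 22.2%. In these 3 pairs the groups did not overlap, 0.1 is the smallest p that 3 against 3 libraries can give, and adjusted over the 5 pairs it was 0.167. The shares of *ATP6V1B2* (92.1% and 93.9%) and *ATP6V1G2* (5.04% and 4.18%) overlapped between the groups (exact permutation p = 0.2 for both).

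**Figure D5:**
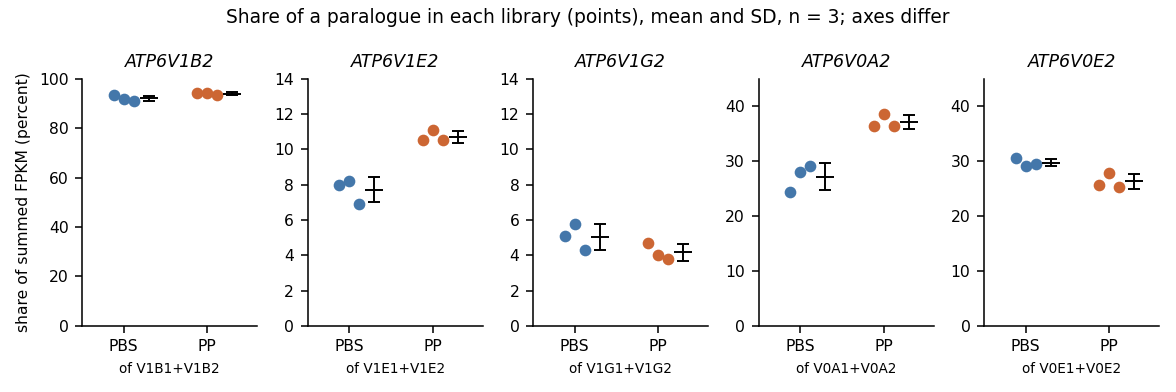
Share of a paralogue in the summed FPKM of its pair in each library (points, percent, axes from 0 with a range per panel), with the mean and SD of 3 libraries. The share of *ATP6V0A2* moves from 27.2% to 37.1% and that of *ATP6V1E2* from 7.72% to 10.7%, while those of *ATP6V1B2* and *ATP6V1G2* overlap between PBS and PP.

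Of the V-ATPase subunits, 3 were below the filter on mean FPKM. *ATP6V1C2* was among them, with 0.708 ± 0.0199 FPKM with PBS and 0.373 ± 0.183 with PP (SD, n = 3) from 11 to 50 counts, and was called lower in the fit with the limit lowered to 0.1 (log2 fold change -0.32, adjusted p = 0.0132 by limma). *ATP6V0A4*, the kidney form of subunit a, had 0 to 5 counts per library. *ATP6V0D2*, known from kidney and osteoclasts, had 1 count in a single PP library and 0 in the others. *ATP6V1FNB*, which is no subunit, was at 0.465 ± 0.106 FPKM with PBS and 0.561 ± 0.136 with PP and was not called (adjusted p = 0.366).

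Wider lists of genes that work with the members were counted in the same fit, in which 34.4% of all genes were lower and 38.1% higher. Of 34 other lysosomal hydrolases and their activators tested, 24 fell (70.6%) and 3 rose (8.82%), with a median log2 fold change of -0.32. The cysteine protease gene *CTSS* (-1.34) and *GM2A* (-1.12), which encodes the activator of HEXA for ganglioside breakdown, fell most. *CTSO*, which encodes cathepsin O, had a log2 fold change of 0.29, from 2.91 ± 0.0944 FPKM with PBS to 3.80 ± 0.436 with PP (SD, n = 3).

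Of 34 other lysosomal membrane proteins and transporters tested, 18 fell (52.9%) and 6 rose (17.6%), with a median log2 fold change of -0.16. The amino acid transporter gene *SLC36A1* fell from 12.1 ± 0.223 to 3.73 ± 0.0524 FPKM (SD, n = 3, log2 fold change -1.47), and *ABCA2*, which encodes a lipid transporter, fell by 0.87 on the log2 scale. *DRAM1*, which encodes an autophagy modulator induced by p53, rose from 5.67 ± 0.109 to 13.1 ± 0.667 FPKM (log2 fold change 1.08), and *TMEM106B* rose by 0.42 on the log2 scale. Of 14 accessory and assembly proteins of V-ATPase, 8 fell (57.1%) and 2 rose (14.3%), with a median of -0.20. That list also holds *TCIRG1* (-0.65), a form of V0 subunit a counted with V0 above, and without it 7 of 13 fell (53.8%), with a median of -0.12. Of those 13, *ATP6AP2* (-0.56), which encodes the prorenin receptor, fell most, and *ATP6AP1L* (0.25) and *DMXL1* (0.22) rose.

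Of 14 genes for the tagging and sorting of lysosomal enzymes, 10 fell (71.4%) and 1 rose (7.14%), with a median of -0.32. *SORL1* (-0.98), which encodes a sorting receptor, and *NAGPA* (-0.60), which encodes the enzyme that uncovers the mannose 6-phosphate tag, fell most. The gene that rose, *GGA1* (0.20, adjusted p = 0.0219 by limma), had overlapping libraries, at 10.8 to 12.9 FPKM with PBS and 12.8 to 14.6 with PP, and lost its call without PBS replicate 1, PBS replicate 3 or PP replicate 2 and with no filter on low genes. Of 17 tested genes that act on the MiT/TFE factors at the lysosome or respond to them, 6 rose (35.3%, beside 38.1% of all genes) and 4 fell (23.5%, beside 34.4%). Their median of 0.01 had no steady sign, being -0.04 without PBS replicate 1, -0.01 without PP replicate 1, 0.06 without PBS replicate 2, 0.03 without PP replicate 3, 0.11 at a mean FPKM of at least 5 and -0.04 with *GPNMB* left out (added after the data were seen). *GPNMB* (0.53), a target gene of these factors that encodes a lysosomal membrane glycoprotein, and *FNIP1* (0.49), a partner of folliculin, rose most. *LAMTOR1* (-0.56) and *LAMTOR4* (-0.47), which encode parts of the Ragulator scaffold for mTORC1, fell most.

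Some of these values may share reads with other genes. In GENCODE, 6 of the 50 tested members have named pseudogenes (*GUSB* with 19, *ATP6V1G1* with 7, *ATP6V0C* and *ATP6V0E1* with 4 each, *ATP6V1E1* with 3 and *IDS* with 1), and 9 overlap an exon of a protein-coding gene or readthrough on the same strand, *ATP6V1G2* among them. For 24 tested members an exon of another gene overlaps on the opposite strand. The labels name a library kit that keeps the strand, but the sources used here do not give the strand setting of the counting. How these reads were divided was not tested, so the values of these genes are uncertain to that extent.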

How the data were processed

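RNA-seq of NCI-H660 cells was analysed in 3 PBS and 3 PP libraries. The authors deposited FPKM by gene symbol. The submitters' processing notes name fastp, HISAT2, HTSeq and GRCh38, whereas the methods name Bowtie, hg19, RSEM, Cufflinks and HTSeq, and which of these made the deposited FPKM is not given in the sources used here. The FPKM of all 17177 genes were whole multiples of a step within 0.01 count, and these counts gave the depth and the limma-voom alternative.

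limma 3.58.1 in R 4.3.3 (lmFit, eBayes with trend, two-sided) was fitted to log2(FPKM + 1) of 11726 genes with a mean of at least 1, with Benjamini-Hochberg adjustment. The pseudocount understates changes of low genes. Steps were tested on simulated data. Members, lists and tests were chosen with earlier results of these data known, and lists were written from general knowledge. Values of every library are given for the MiT/TFE factors, all membrane and lumenal genes, and in V1, V0 and hydrolases the 3 called genes with the highest and the 3 with the lowest log2 fold change. For the wider lists up to 2 of each are named, with a log2 fold change and for some a mean and SD or a range. The alternatives were another pseudocount, other filters, size factors, no trend, a replicate block, each library left out and limma-voom. Figures used Python 3.11.15 with matplotlib 3.10.9. The result for 1 gene of the wider lists is not reported here.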

Additional observations from a re-analysis of the deposited data

How the results depend on the processing

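Of the 50 tested members, 36 kept their direction and their call in each of the 14 alternative settings that tested them. Of the others, 5 lost their call in at least 1 setting, 4 gained one and 5 changed sign while never called. *ATP6V1E2*, counted in the 36, was not tested at a mean FPKM of at least 5. *CTSA*, *CTSB*, *GRN*, *NPC2*, *ATP6V1H*, *TFE3*, *TFEB* and *NPC1* are among the 36. The median log2 fold change ranged from -0.61 to -0.42 for the hydrolases, from -0.51 to -0.47 for V0, from -0.14 to -0.04 for V1, from -0.30 to -0.28 for the membrane proteins and from 0.00 to 0.03 for all genes.

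The signs that changed did so when 1 library was left out, with log2 fold changes from -7.50e-05 (without PP replicate 1) to 0.0638 for *ATP6V1A*, from -0.0235 to 0.0275 for *CTSC* (above 0 without PBS replicate 1 or PP replicate 3), from -0.0643 to 0.0127 for *NEU1* (without PBS replicate 1 or PP replicate 1), from -0.0594 to 0.0133 for *SGSH* (without PP replicate 3) and from -0.0713 to 0.0048 for *PSAP* (without PP replicate 3). Past the fold and unadjusted P limits, limma-voom gave 397 higher and 559 lower genes and a pseudocount of 0.1 gave 531 lower, beside 263 and 344. Hydrolases called higher numbered 1 with no filter and 1 by limma-voom, beside 0. V1 genes called higher numbered 1 at a mean FPKM of at least 5, beside 2, since fewer genes were tested there. V1 genes called lower numbered 3 without the eBayes trend, 3 with the replicate block and 3 to 5 when each library was left out, beside 5. Accessory proteins called higher numbered 1 at a mean of at least 5, beside 2. *ATP6AP1L*, at 1.86 FPKM with PBS and 2.41 with PP, was not tested there. Sorting genes called higher (*GGA1*) numbered 0 with no filter and 0 to 1 when each library was left out, beside 1. The cause was not tested for the others.

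Libraries with the same number did not deviate together (correlations of -0.21, -0.014 and -0.13), so the labels share only a number. With the replicate block, 4260 genes were higher and 3878 lower, beside 4464 and 4032, and among the members *ATP6V1D* (adjusted p = 0.0615) and *ATP6V1G1* (0.0845) lost their call. With 3 libraries a group, precision is limited for genes with few counts such as *MITF* and *ATP6V1C2*.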
